A study of Homo sapiens with 6 samples.

Results

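The chaperonin CCT, also called TRiC, is built from 8 different protein subunits, and the genes TCP1, CCT2, CCT3, CCT4, CCT5, CCT6A, CCT7 and CCT8 encode them. These 8 genes were picked by their symbols, with earlier results of these data known, from the 30230 genes of the deposited read table. All 8 were among the 17076 genes that passed the filter on low counts. The mRNA was sequenced from A549, an established human cell line from a lung adenocarcinoma. The control group (NC, n = 3) carried a control plasmid according to the sample labels and a scramble siRNA according to the methods of the study, and the other group (siFSCN1, n = 3) carried an siRNA against FSCN1, which encodes fascin, a protein that bundles actin filaments. The comparison asked which transcripts changed when FSCN1 was silenced. A single siRNA was used for these libraries in a single cell line, so loss of FSCN1 and other actions of that siRNA cannot be told apart. The study calls the libraries biological replicates, the labels do not say that they were separate cultures, and the p-values measure the spread between these libraries.

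CCT is a cytosolic folding machine made of a pair of stacked rings, each with 1 copy of every subunit in a fixed order. It binds newly made proteins in its central chamber and closes over them when ATP is hydrolysed. Actin and tubulin are its best known substrates, and a number of proteins with WD40 β-propellers, among them G protein β subunits and activators of the anaphase-promoting complex, also fold with its help. Prefoldin hands unfolded chains to the ring, and phosducin-like proteins act as cochaperones on it.

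The libraries held between 27967301 and 36560919 counts, and FSCN1 itself changed by a log2 fold change of -3.89 (SE 0.094, edgeR adjusted p = 8.1e-16). Mitochondrial genes took 8.61% to 9.29% of the counts in NC and 12.6% to 12.8% in siFSCN1. The 5 epithelial markers measured also separated by group. In FPKM (fragments per kilobase of exon, scaled to the mapped fragments of the library), the keratins KRT18 (1675 to 1947 in NC, 939 to 1157 in siFSCN1), KRT7 (495 to 510.0, then 233 to 261) and KRT8 (at least 905, then at most 658) were lower in every siFSCN1 library. CDH1 (9.02 to 9.41, then 25.94 to 26.65) and EPCAM (2.80 to 3.34, then 4.09 to 4.51) were higher in every siFSCN1 library. The summed level of the 5 markers was 3103 to 3482 FPKM in NC and 1752 to 2106 FPKM in siFSCN1. The part of the mitochondrial share and of these markers in the results below was not tested. The defining markers of leukocytes and endothelium, PTPRC and PECAM1, did not exceed 0.01 and 0.03 FPKM.

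All 8 subunit transcripts were lower in siFSCN1 than in NC. Fold changes ran from a log2 value of -1.29 for CCT8 to -0.53 for CCT5, with a median of -1.06 against 0.03 over all tested genes. Every subunit passed the edgeR quasi-likelihood test with Benjamini-Hochberg adjustment over all tested genes, where 33.2% of all tested genes were called lower and 68.3% in either direction. CCT4, CCT8, CCT7 and TCP1 were also at least 2-fold lower, which 4.85% of all tested genes were, with 16.5% changed 2-fold in either direction. In each subunit every siFSCN1 library had a lower normalised count than every NC library, a separation seen in 34.4% of all tested genes. The RNA came from whole cultures, so fewer cells that express a gene and less of its RNA per cell cannot be told apart. The values are relative to each library, and no spike-in sets an absolute scale.

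Abundant genes in general were lower in siFSCN1, and the subunits are abundant genes. Among the 595 tested genes with a mean level between 39.2 and 126 FPKM, the range of the subunits, the median log2 fold change was -0.33. In that range 72.9% of genes were called lower and 16.3% higher, 8.91% were at least 2-fold lower and 10.1% changed at least 2-fold in either direction, and 72.8% had every siFSCN1 library under every NC library. The share of these genes with a higher log2 fold change than the subunit was 97.0% for CCT8, 96.6% for CCT4, 96.3% for CCT7 and 95.5% for TCP1, but 69.7% for CCT5. A call of lower expression was thus usual at this abundance, and a 2-fold decrease was not. When the trend of fold change with abundance was removed, a step added after the data were seen, all 8 subunits were still called lower, with log2 values from -1.04 for CCT8 to -0.25 for CCT5, but CCT8 was the 1 subunit still at least 2-fold lower.

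**Figure D1:**
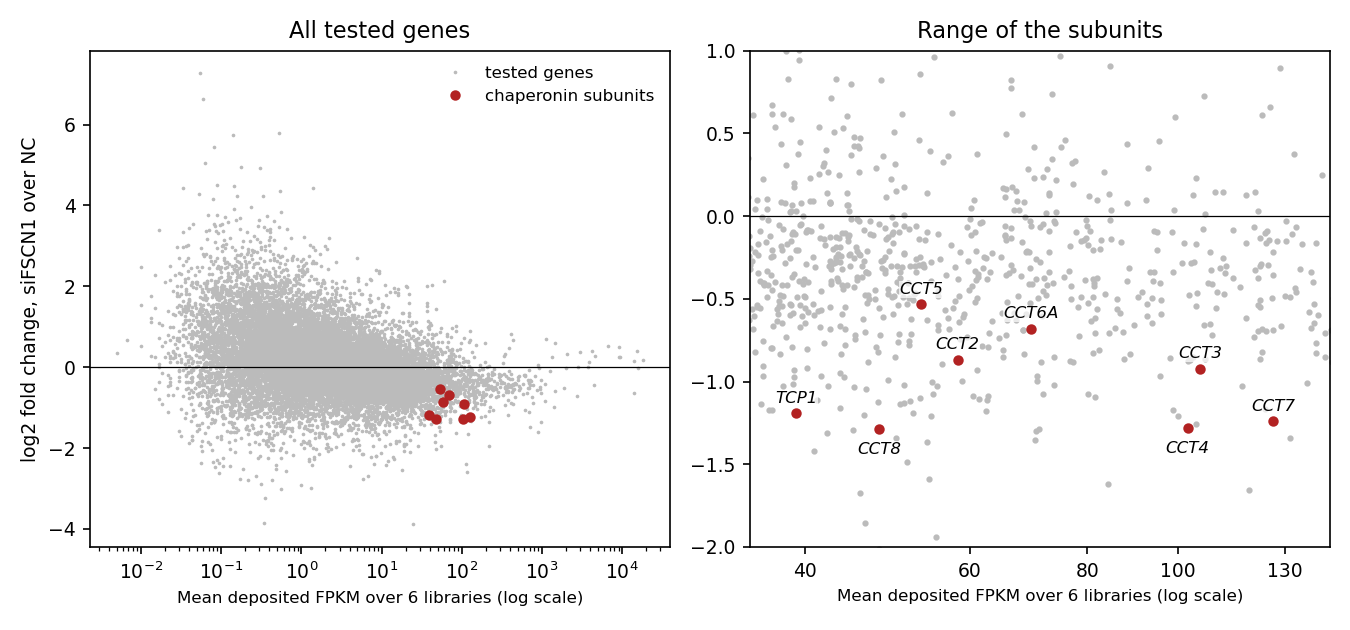
Log2 fold change (siFSCN1 over NC, edgeR) against mean deposited FPKM on a log axis, for all 17076 tested genes on the left and for the range of the subunits on the right, with grey points for genes and red points for the 8 subunits. The grey points drift below 0 at high FPKM, where CCT4, CCT7, CCT8 and TCP1 lie near the lower edge and CCT5 lies among the other genes.

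CCT8, the theta subunit (ENSG00000156261.13, GRCh38 chromosome 21, 29055805 to 29073797, minus strand), had the lowest log2 fold change of the 8. It measured 64.91, 65.89 and 66.63 FPKM in the NC libraries and 30.51, 29.46 and 30.85 FPKM in the siFSCN1 libraries. The 3 control values lay within 2 FPKM of each other, and the siFSCN1 values were far below all of them. In CPM, read counts scaled to library size after trimmed-mean (TMM) normalisation, the gene stood at 277 ± 1.11 in NC and 113 ± 2.12 in siFSCN1 (SD, n = 3 each), which is a log2 fold change of -1.29 (SE 0.037, 95% interval -1.36 to -1.21, adjusted p = 3.9e-15).

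CCT4, the delta subunit (ENSG00000115484.15, chromosome 2, 61868085 to 61888671, minus strand), is one of the subunits that contact actin while it folds. It measured 137.23, 144.87 and 137.86 FPKM in NC and 66.12, 62.83 and 65.13 FPKM in siFSCN1. All 3 siFSCN1 libraries were under the lowest NC library by more than the whole spread within either group. The log2 fold change was -1.28 (SE 0.037, 95% interval -1.36 to -1.20, adjusted p = 4.7e-15).

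CCT7, the eta subunit (ENSG00000135624.16, chromosome 2, 73233420 to 73253021, plus strand), was the subunit transcript with the highest level per length. Its NC libraries measured 170.16, 176.23 and 167.25 FPKM and its siFSCN1 libraries 84.77, 80.09 and 79.22 FPKM. Normalised counts were 774 ± 23.6 CPM in NC and 328 ± 8.50 CPM in siFSCN1 (SD, n = 3 each), a log2 fold change of -1.24 (SE 0.038, 95% interval -1.32 to -1.16, adjusted p = 9.8e-15).

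TCP1, the alpha subunit that gave the complex its name (ENSG00000120438.12, chromosome 6, 159778498 to 159789703, minus strand), was the transcript with the lowest FPKM in both groups. It measured 51.22, 54.41 and 51.87 FPKM in NC and 26.51, 24.76 and 26.14 FPKM in siFSCN1. The log2 fold change was -1.19 (SE 0.039, 95% interval -1.27 to -1.11, adjusted p = 1.9e-14). The 95% intervals of TCP1, CCT7, CCT4 and CCT8 overlapped one another.

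CCT3, the gamma subunit (ENSG00000163468.15, chromosome 1, 156308968 to 156367873, minus strand), followed at a distance. Its NC libraries measured 131.66, 132.70 and 133.33 FPKM and its siFSCN1 libraries 81.37, 75.58 and 78.63 FPKM. In normalised counts it kept 52.8% of the NC level, a log2 fold change of -0.92 (SE 0.035, adjusted p = 1.3e-13). CCT2, the beta subunit (ENSG00000166226.13, chromosome 12, 69585426 to 69601570, plus strand), measured 69.53, 73.81 and 72.95 FPKM in NC and 45.51, 43.97 and 43.52 FPKM in siFSCN1. It kept 54.8% of the NC level, a log2 fold change of -0.87 (SE 0.036, adjusted p = 4.2e-13).

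CCT6A, the zeta subunit (ENSG00000146731.11, chromosome 7, 56051685 to 56063989, plus strand), measured 78.75, 85.08 and 82.10 FPKM in NC and 58.54, 55.60 and 57.88 FPKM in siFSCN1. It kept 62.3% of the NC level in normalised counts, a log2 fold change of -0.68 (SE 0.037, adjusted p = 1.7e-11). CCT5, the epsilon subunit (ENSG00000150753.12, chromosome 5, 10249929 to 10266389, plus strand), is known from a substitution that causes a hereditary sensory neuropathy. It measured 58.28, 61.10 and 60.59 FPKM in NC and 46.80, 45.97 and 46.71 FPKM in siFSCN1. Its groups did not overlap either, but CCT5 kept 69.1% of its NC level, more than any other subunit, with a log2 fold change of -0.53 (SE 0.035, 95% interval -0.61 to -0.46, adjusted p = 1.8e-10).

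**Figure D2:**
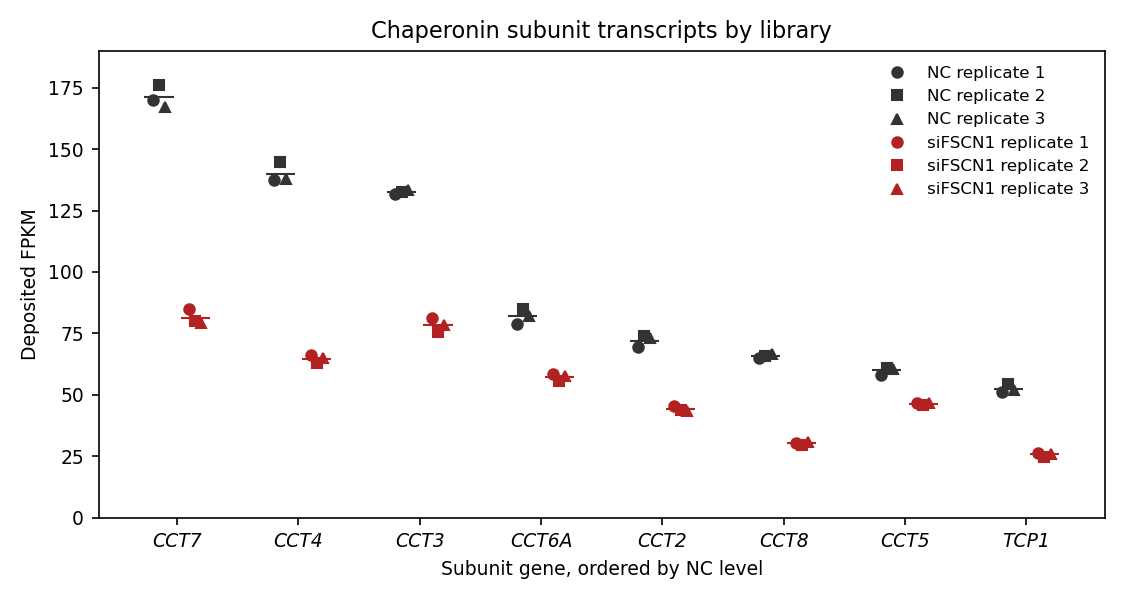
Deposited FPKM of the 8 subunit genes in each library, with points for the 3 NC and 3 siFSCN1 libraries and bars for the group means. In every subunit the siFSCN1 points sit below all NC points, with the narrowest gap in CCT5 (58.28 to 61.10 against 45.97 to 46.80 FPKM).

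Because the decrease was unequal, the make-up of the subunit pool shifted. The FPKM of the 8 subunits summed to 776 ± 16.5 in NC and 429 ± 11.0 in siFSCN1 (SD, n = 3 each), which left 55.3% of the NC sum. This sum did not overlap between groups, and the two-sided exact permutation test gave p = 0.1, the smallest value that 3 against 3 libraries allow. As a share of all counts in a library, the 8 genes took 0.347% ± 0.0083 in NC and 0.199% ± 0.0026 in siFSCN1.

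CCT5 took 7.73% of the summed FPKM in NC and 10.8% in siFSCN1, and CCT6A took 10.6% and 13.4%. CCT3 went from 17.1% to 18.3% and CCT2 from 9.29% to 10.3%. In the other direction CCT7 went from 22.1% to 19.0% and CCT4 from 18.0% to 15.1%, and CCT8 and TCP1 lost 1.42 and 0.75 percentage points. None of the 8 shares overlapped between groups, and each of the 8 exact permutation tests gave p = 0.1, also after Benjamini-Hochberg adjustment, so these shifts are reported by their separation and not as passing a test. The shares have a fixed sum and are not independent. How often shares within other sets of genes separate was not measured.

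**Figure D3:**
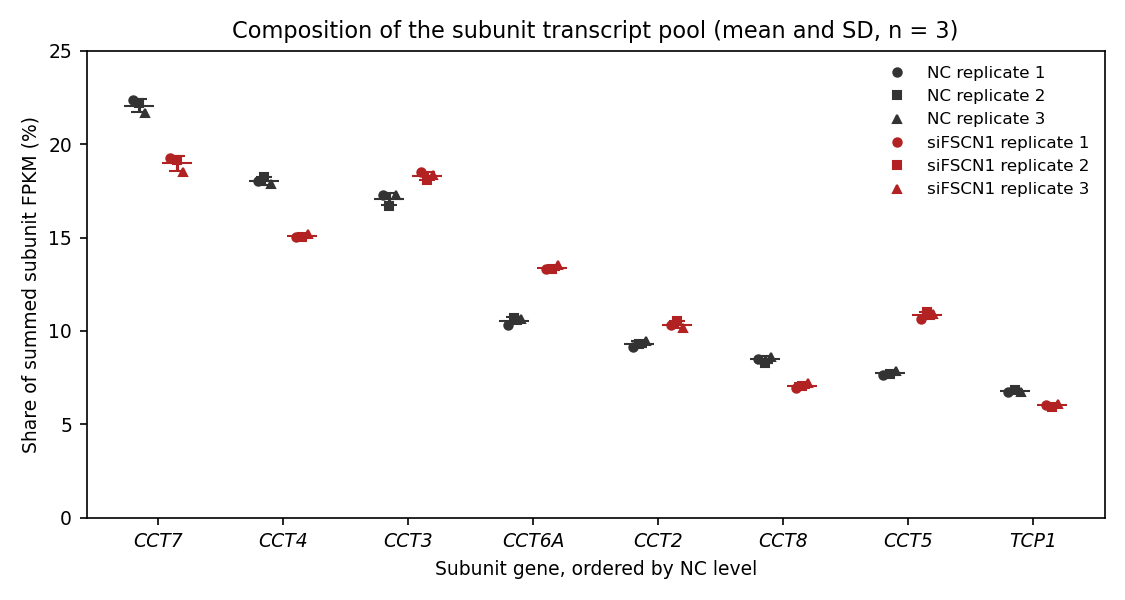
Share of each subunit in the summed FPKM of the 8 subunits, in percent, for each NC and siFSCN1 library. The shares of CCT5 and CCT6A are higher and those of CCT4 and CCT7 lower in all 3 siFSCN1 libraries than in any NC library.

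The ratio of CCT5 to CCT8 put this most plainly. It was 0.898, 0.927 and 0.909 in the NC libraries and 1.53, 1.56 and 1.51 in the siFSCN1 libraries, so CCT5 lay under CCT8 in every control and over it in every siFSCN1 library. Of the 28 ratios between pairs of subunits, 23 did not overlap between groups. The other 5 were CCT4 to CCT7, CCT4 to CCT8, CCT7 to CCT8, TCP1 to CCT7, and CCT2 to CCT3, which are pairs with like fold changes. These ratios share the same subunit levels and are not independent. How often ratios between other genes separate by group was not measured.

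In NC the order of the FPKM levels was CCT7, CCT4, CCT3, CCT6A, CCT2, CCT8, CCT5 and TCP1, and no neighbours in that order overlapped over the 3 libraries. In siFSCN1 it was CCT7, CCT3, CCT4, CCT6A, CCT5, CCT2, CCT8 and TCP1, where CCT7 and CCT3 overlapped. The ratio of the highest to the lowest subunit level was 3.26 ± 0.053 in NC and 3.15 ± 0.109 in siFSCN1 (SD, n = 3 each, exact permutation p = 0.2). The deposited FPKM divide by all annotated exons of a gene, from 2701 bases in CCT4 to 5638 bases in CCT5. Divided by the length of the canonical transcript instead, the NC order became CCT7, CCT3, CCT2, CCT4, CCT6A, CCT8, TCP1 and CCT5, so the order between genes depends on the transcript length while the change within a gene does not. Over the 8 subunits the log2 NC level in FPKM and the log2 fold change had a Pearson r of -0.34 and a Spearman rho of -0.29, given as a description.

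In the known order of the ring, TCP1, CCT4, CCT2, CCT5, CCT7, CCT8, CCT6A and CCT3, with CCT3 next to TCP1 again, the 4 subunits that were at least 2-fold lower sat in pairs of neighbours. TCP1 and CCT4 were followed by CCT2 and CCT5 with log2 fold changes of -0.87 and -0.53, then by CCT7 and CCT8, then by CCT6A and CCT3 at -0.68 and -0.92. This arrangement was seen after the values and was not tested.

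**Figure D4:**
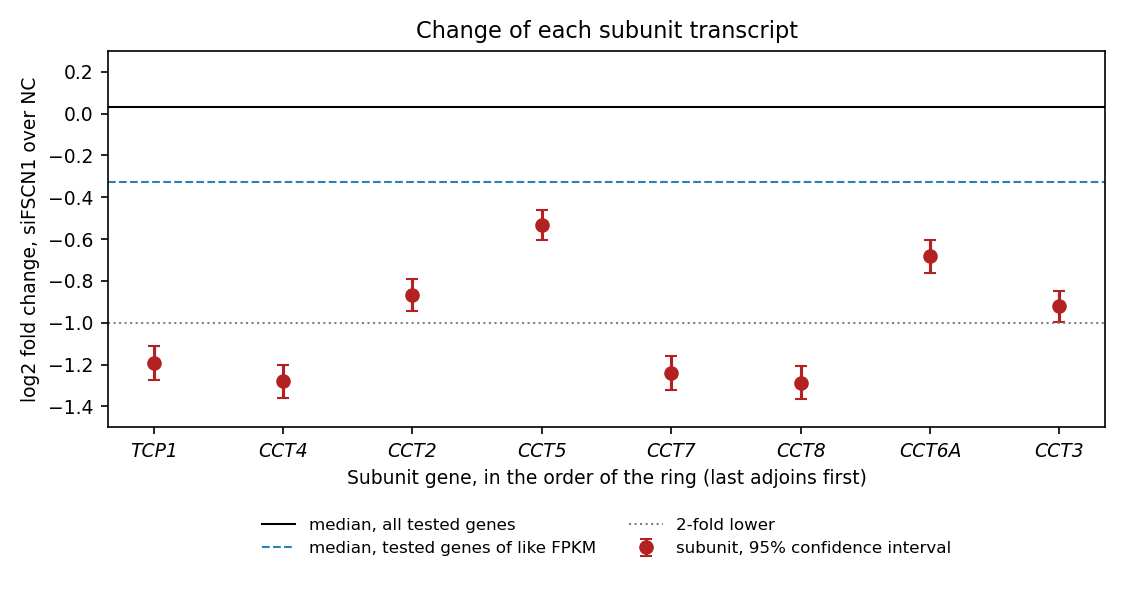
Log2 fold change (siFSCN1 over NC, edgeR, with 95% intervals) of the 8 subunits, set out in their order around the ring, with lines for the medians of all tested genes (0.03) and of genes of like abundance (-0.33) and for a 2-fold decrease. Values below -1 for TCP1, CCT4, CCT7 and CCT8 alternate in pairs with values between -0.92 and -0.53 for CCT2, CCT5, CCT6A and CCT3.

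In 4 of the 8 genes another protein-coding gene starts on the opposite strand within 1000 bases of the subunit's canonical start. This made the response on both sides of a shared start region measurable. Non-coding neighbours were not sought. MRPL18, which encodes a protein of the mitochondrial ribosome and starts 865 bases from TCP1, measured 54.56, 61.08 and 58.40 FPKM in NC and 36.10, 34.70 and 35.16 FPKM in siFSCN1. It was lower together with TCP1, at a log2 fold change of -0.88 (SE 0.048, adjusted p = 1.6e-11).

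PSPH, the phosphatase of the last step of serine synthesis, starts 321 bases from CCT6A. It measured 13.17, 13.15 and 12.96 FPKM in NC and 13.01, 11.26 and 10.75 FPKM in siFSCN1, groups that overlapped on this scale, and had a log2 fold change of -0.33 in normalised counts (SE 0.060, adjusted p = 8.9e-05).

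ATPSCKMT, a lysine methyltransferase that acts on a subunit of the mitochondrial ATP synthase, starts 392 bases from CCT5 and went the other way. It measured 1.87, 1.88 and 1.96 FPKM in NC and 4.01, 3.58 and 3.28 FPKM in siFSCN1, a log2 fold change of 0.76 (SE 0.104, adjusted p = 3.5e-06), beside -0.53 for CCT5. TSACC, a testis-type cochaperone gene 234 bases from CCT3, was near the limit of detection at 0.76 to 1.47 FPKM over all 6 libraries and did not pass the test (log2 fold change -0.03, adjusted p = 0.93). TCP1 and MRPL18 were thus lower together, while CCT5 and ATPSCKMT moved apart. Of all tested genes 33.2% were called lower and 35.1% higher, and in the FPKM range of the subunits 72.9% were called lower. With the trend of fold change with abundance removed, MRPL18 was at -0.70 and ATPSCKMT at 0.64. Whether the genes of a pair share regulation was not tested.

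The stretches between the outermost annotated starts of the TCP1 and CCT6A pairs are shown because both genes of each pair were lower. They were read from the GRCh38 genome on the strand of the subunit gene, chr6:159789704-159789811 (minus strand, 108 bases) and chr7:56051605-56051684 (plus strand, 80 bases). Capitals mark matches on either strand to the CCAAT box (CCAAT) and the GC box (GGGCGG).
TCP1 to MRPL18: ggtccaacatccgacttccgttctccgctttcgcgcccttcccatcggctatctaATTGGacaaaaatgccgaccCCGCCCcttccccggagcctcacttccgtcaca
CCT6A to PSPH: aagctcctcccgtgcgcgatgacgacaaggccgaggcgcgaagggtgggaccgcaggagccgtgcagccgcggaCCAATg
Each of the stretches shown held a CCAAT box, and the one beside TCP1 also held a GC box. The stretch between CCT5 and ATPSCKMT, which moved apart, was 31 bases of A and held neither box. How often stretches of these lengths hold such boxes was not measured.

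CCT genes are known targets of heat shock factor 1, so the RefSeq promoter windows (GRCh38.p14, 250 bases before to 50 after a start) were searched on both strands for a pair of inverted heat shock half-sites, GAANNTTC or TTCNNGAA. The table held 9 windows, for 7 of the 8 subunits. A match was found in 3 of these 9 windows, those of 3 subunits, against 13.5% of all 35116 windows. The matches are shown in capitals with their flanks, on the strand of the gene, for chr6:159789815-159789844 (minus), chr12:69585789-69585818 (plus) and chr2:61888607-61888636 (minus).
TCP1: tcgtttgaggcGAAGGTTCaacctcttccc
CCT2: cccggagcgaaGAAATTTCtagtgtgggac
CCT4: cccgacgccggcgccgctTTCTGGAAggtt
The match began 231 bases before the start in TCP1 and 89 bases before it in CCT2, and 38 bases after it in CCT4. Log2 fold changes of these 3 genes were -1.19, -0.87 and -1.28, and the 4 subunits whose windows held no such match, CCT8, CCT7, CCT3 and CCT5, lay at -1.29, -1.24, -0.92 and -0.53. A CCAAT box was found in 4 of the 9 windows (34.6% of all windows), a GC box in 6 of the 9 (45.0%), the ETS motif CCGGAAG in 1, of CCT2 (10.3%), and the E-box CACGTG in none (7.26%). A match is a run of letters and no measure of binding.

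Across 10 lists of related genes, 67 of 82 tested genes were called lower and 6 higher, where 33.2% of all tested genes were called lower and 35.1% higher. At least 2-fold lower were 11 of the 82, against 4.85% of all tested genes. In the FPKM range of the subunits 72.9% of tested genes were called lower, 16.3% higher and 8.91% at least 2-fold lower. The list genes were not matched for abundance, and the lists were chosen with earlier results of these data known. The lists differed among themselves, and each is described by its counts and its median.

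Among the cochaperones that work on the ring, all 6 prefoldin subunits were lower, with a median log2 fold change of -0.48, from -0.60 for PFDN6 to -0.26 for PFDN5. Of the 3 tested phosducin-like genes, all lower, PDCL3 moved most. It measured 14.99, 16.08 and 15.82 FPKM in NC and 6.66, 5.20 and 5.35 FPKM in siFSCN1, and its log2 fold change of -1.61 (adjusted p = 2.6e-12) was lower than that of any CCT subunit. PDCL and TXNDC9 were at -0.94 and -0.77, and PDCL2 did not pass the filter on low counts. The prefoldin-like and R2TP genes, which assemble larger machines together with HSP90, were lower in 6 of 7, with a median of -0.52, and URI1 did not pass the test at 0.0019 (adjusted p = 0.97).

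Of the 4 tested relatives of the subunits 3 were higher, with a median of 0.46. CCT6B, the testis-type paralogue of CCT6A, was higher at a log2 fold change of 0.86 (adjusted p = 0.0021), but from a low level of 1.03 to 1.87 CPM. The chaperonin-like genes of the Bardet-Biedl complex, BBS10 and MKKS, were higher at 0.75 and 0.17. BBS10 was also a low transcript, with means of 1.18 FPKM in NC and 2.23 FPKM in siFSCN1. BBS12 did not pass the test at 0.02 (adjusted p = 0.91). Of all tested genes 35.1% were called higher. CCT8L2 was not analysed here.

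Genes of the main substrates were less uniform. Of 14 tested actin and tubulin genes 11 were lower, with a median of -0.48. ACTG1, the gamma cytoplasmic actin, measured 1019.09, 1038.82 and 1013.98 FPKM in NC and 448.86, 394.34 and 390.78 FPKM in siFSCN1, a log2 fold change of -1.48 (adjusted p = 1.3e-14). ACTB, the beta cytoplasmic actin, was at -0.03 and did not pass the test (adjusted p = 0.53), and neither did TUBA1A at 0.07 (adjusted p = 0.16) or TUBB3 at 0.19 (adjusted p = 0.51). Both cytoplasmic actins are folded by CCT, and the difference between their changes was not tested. The tubulin folding cofactors, which take tubulin over from CCT, were lower in 5 of 6 table rows with a median of -0.37, from -0.77 to -0.19, and a second row of TBCE did not pass the test at 0.60 (adjusted p = 0.071).

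Of 19 tested β-propeller and other substrate genes 15 were lower and 2 were higher, with a median of -0.42. GNB5, a G protein β subunit, measured 3.13, 3.06 and 3.24 FPKM in NC and 0.92, 0.74 and 1.00 FPKM in siFSCN1, a log2 fold change of -1.99 (adjusted p = 8.4e-14). The activators of the anaphase-promoting complex, FZR1 and CDC20, were at -1.44 and -1.19, and RPTOR, the scaffold of mTOR complex 1, was at -1.09. STAT3 was higher at 0.59 (adjusted p = 7.1e-10) and VHL at 0.32, while HDAC3 at -0.06 and PPP2R2A at 0.08 did not pass the test (adjusted p = 0.32 and 0.14).

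Other chaperone systems were lower too. All 14 tested genes of the HSP70 and HSP90 systems were lower, with a median of -0.78, and 4 of them at least 2-fold. HSPA1B and HSPA1A, inducible HSP70 genes whose near-identical sequences leave their separate counts uncertain, were at -1.42 and -1.38, STIP1, which links HSP70 to HSP90, at -1.09, and DNAJB1, an HSP40 partner of HSP70, just past the 2-fold mark. With library totals STIP1 was at -0.90 and DNAJB1 at -0.82, and with the abundance trend removed they were at -0.80 and -0.77. HSPA1A and HSPA1B stayed more than 2-fold lower in both settings. The smallest change was that of HSPB1, at -0.43. The 4 mitochondrial chaperone genes were lower with a median of -0.65, from -0.80 for TRAP1 to -0.18 for HSPD1 (adjusted p = 0.00029), the mitochondrial counterpart of CCT. HSPD1 was at 0.01 (adjusted p = 0.81) when library totals replaced TMM scaling and at 0.14 (adjusted p = 0.0029) when the trend of fold change with abundance was removed.

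Of the transcription factors on the list, HSF1 and HSF2 were both at -0.40 and MYC at -0.18 (adjusted p = 0.00092), MAX did not pass the test at 0.00 (adjusted p = 0.97), and HSF4, the heat shock factor known from the lens, was higher at 2.31 (adjusted p = 1.4e-10). HSF4 was a low transcript, at 0.26, 0.41 and 0.32 FPKM in NC and 1.87, 1.91 and 1.70 FPKM in siFSCN1.

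**Figure D5:**
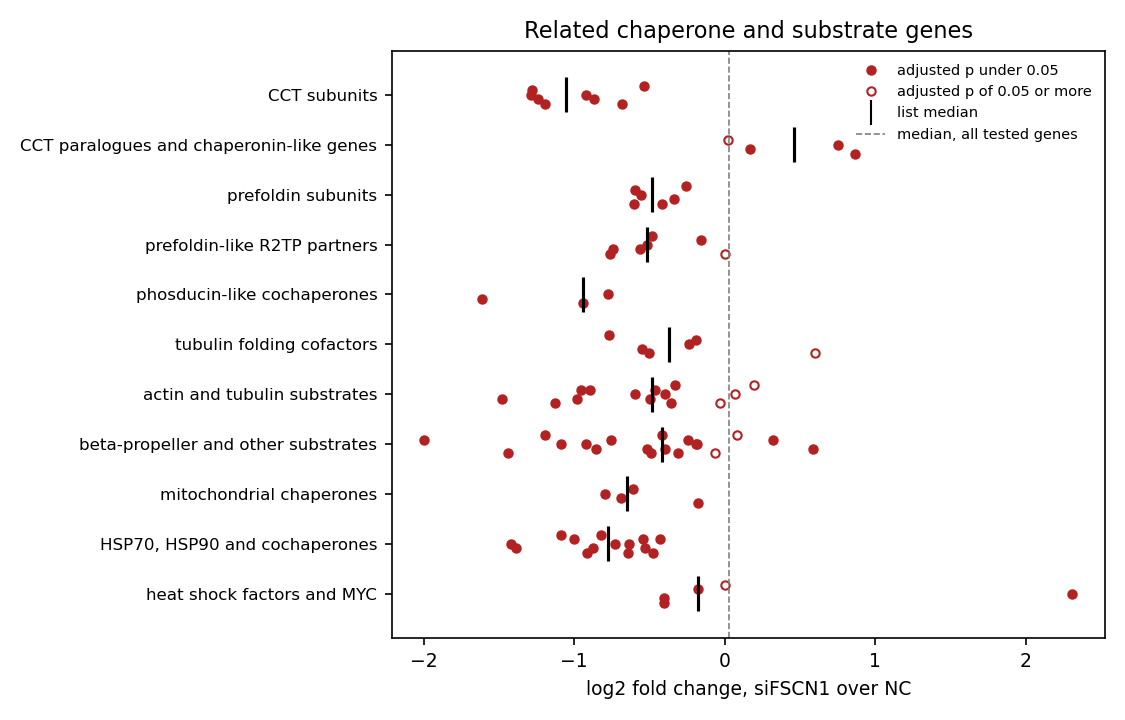
Log2 fold change (siFSCN1 over NC, edgeR) of the tested genes of the 11 lists, the subunits included, with filled points for adjusted p under 0.05, open points for the rest, black ticks for list medians and a dashed line for the median of all tested genes (0.03). The CCT subunits have a median of -1.06, the HSP70 and HSP90 list one of -0.78, and the chaperonin-like genes lie to the right of 0.

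Some of these genes changed their call with the scaling. With upper-quartile scaling and with library totals, URI1, TUBA1A, PPP2R2A, MAX and the second TBCE row were called higher, and TBCC, TBCD, MYC, RPAP3, GNB4 and HSPD1 were not called. With library totals alone, ACTB and HDAC3 were called higher, and STRAP, HSF2 and PFDN5 were not called. RPTOR and TUBA4A were then at -0.90 and -0.94, short of 2-fold. With the abundance trend removed, PFDN5, STRAP, TUBA1C, TBCD, RPAP3 and MYC were among the genes no longer called lower. ACTB, TUBA1A, URI1, PPP2R2A, MAX and HSPD1 were called higher in that setting.

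Transcripts on the other strand overlap several of the subunit genes, and whether counting used the strand is not given in the sources used here. The gene ACAT2 overlaps TCP1, with mean counts of 2589 in NC and 2002 in siFSCN1, and unnamed antisense genes overlap CCT4, CCT5 and CCT8, the largest of them beside CCT5 with mean counts of 452 and 356. Genes named as pseudogenes of the subunits took few reads. The 10 pseudogene rows of the table summed to between 64 and 161 counts per library, at most 0.263% of the counts of the subunits. Of the 3 that were tested, CCT8P1 was higher at 1.56 (adjusted p = 0.0019) and CCT6P3 at 1.03 (adjusted p = 0.0015), and CCT6P1 was at 0.38 (adjusted p = 0.15).

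The genes most like the mean pattern of the 8 subunits were sought among 5310 genes of at least 5 FPKM, by the root mean square distance of their centred log2 CPM over the 6 libraries. GDI2 was nearest at 0.0115, followed by RFC5 at 0.0166, CCNB1 at 0.0179, CDC25B at 0.0186 and VDAC1 at 0.0203. The log2 fold changes of these 5 genes ran from -1.01 for VDAC1 to -0.99 for CCNB1. Where replicates lie close together, this distance depends mainly on the size of the change, so the 5 names are a description. Of the subunits themselves CCT3 lay nearest at 0.043 and CCT5 farthest at 0.234. Ranked by Pearson's r instead, which ignores the size of a change, the first 5 were HNRNPAB, LDHA, NOP2, GDI2 and TGFBI, and GDI2 was the gene in both sets.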

How the data were processed

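The mRNA-seq libraries of 3 NC and 3 siFSCN1 samples were grouped by their labels. The authors deposited raw read counts per gene and FPKM values per gene. The submitters' processing notes name bcl2fastq, TopHat2 and GRCh38, and the methods of the study name HISAT2 and DESeq2. Deposited fold changes and p-values of the authors were not used.

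The counts were tested with edgeR 4.0.16 (quasi-likelihood test, filterByExpr, TMM, R 4.3.3), with Benjamini-Hochberg adjustment over 17076 genes, a threshold of 0.05, and a prior count of 2 for log2 CPM. The method was tested on simulated data. Levels per length and subunit shares came from the deposited FPKM. Single values were compared by two-sided exact permutation tests with Python 3.11.15 and scipy 1.17.1. Coordinates and canonical starts came from GENCODE release 44, in which 30147 of the 30230 identifiers were found.

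Alternatives were relative log expression, upper-quartile and total-count scaling, DESeq2 1.42.0, no filter beyond 1 count in total, and a stricter filter. The stricter filter kept genes with a mean of at least 10 counts and a CPM of at least 1 in at least 3 libraries. Others were a fold-threshold test, limma 3.58.1 on log2(FPKM + 0.1) and log2(FPKM + 1), a replicate block and leaving out each library. Removal of a loess trend of fold change with abundance (span 0.5) and canonical transcript lengths were added after seeing the data. The members and lists were chosen with earlier results of these data known. Named were FSCN1, all subunits, and the extremes and untested or uncalled members of each list. Also named were protein-coding divergent neighbours within 1000 bases, pseudogenes, and the 5 genes of nearest pattern with a mean of at least 5 FPKM. Other list members, such as those at least 2-fold lower, were named after their values were seen. A member of the substrate lists is not reported here by name.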

Additional observations from a re-analysis of the deposited data

How the results depend on the processing

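Each subunit kept its direction and its call in all 16 alternatives, with log2 fold changes of -1.32 to -1.04 for CCT8 and -0.56 to -0.25 for CCT5 at the 2 ends. The number at least 2-fold lower was 3 with limma on log2(FPKM + 1), where TCP1 was at -0.997, 1 (CCT8) with the abundance trend removed, and 4 in the other alternatives. With the trend removed the values are by construction relative to genes of like abundance. Libraries of the same replicate number did not deviate together (r of same-numbered deviations -0.03, 0.04 and -0.08). With the replicate block the log2 fold changes were -1.19 for TCP1, -0.87 for CCT2, -0.92 for CCT3, -1.28 for CCT4, -0.53 for CCT5, -0.68 for CCT6A, -1.24 for CCT7 and -1.29 for CCT8, the median stayed at -1.06 and the spread at 0.75, and 8 subunits passed the test, 4 of them at least 2-fold lower.

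The subunits' median was -0.94 with upper-quartile scaling, -0.87 with library totals, -0.89 and -0.87 with limma on log2(FPKM + 0.1) and log2(FPKM + 1), and -0.78 with the abundance trend removed, where their spread was 0.79. The median of all genes was 0.15 with upper-quartile scaling and 0.22 with library totals, and the subunits lay 1.09 below it under both. A change of scaling shifts all genes nearly alike, so this distance could hardly differ between them. The subunits' median minus that of all genes was -0.75 with the abundance trend removed, -0.96 with limma on log2(FPKM + 1) and -1.20 with DESeq2. Members called higher numbered 1 in the R2TP list with the abundance trend removed, library totals, upper-quartile scaling and both limma fits. Among actins and tubulins 2 were called higher with the trend removed, library totals and both limma fits, and 1 with upper-quartile scaling and the stricter filter. Of the heat shock factors and MYC 2 were called higher with the trend removed, library totals, upper-quartile scaling and limma, and 1 lower with library totals and limma. Of the tubulin cofactors 3 were called lower with library totals, upper-quartile scaling and limma, and 1 higher with the first 2 of these, while leaving out single libraries gave 0 to 1 higher, the 1 being without NC replicate 2. The β-propeller list had 4 higher with library totals and the mitochondrial list 1 with the trend removed. The cause was not tested. Differences in share, in percentage points, were -1.17 for TCP1, 0.87 for CCT2, 0.76 for CCT3, -2.38 for CCT4, 4.22 for CCT5 and 2.50 for CCT6A from counts without length, and -0.92 for TCP1, 1.27 for CCT2, -1.95 for CCT4, 2.33 for CCT6A and -3.51 for CCT7 with canonical transcript lengths.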
